A study of Mus musculus with 78 samples.

Results

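Mouse lung was compared between 6 h and 3 h of sleep deprivation (SD), in 9 mice at each duration. These 18 arrays, each of the lung RNA of 1 mouse, were taken by their labels from the 78 arrays of the series. All mice were young adult C57BL/6J males that were fed only in the dark phase. The SD mice were kept awake by gentle handling from lights on, and all mice were killed by cervical dislocation. Sleep of the undisturbed mice was judged from inactivity, without EEG. Undisturbed sleeping mice (SS) killed at the same clock times, 9 at 3 h and 7 at 6 h, gave the change with time of day, and 9 baseline mice were killed at lights on. Wakefulness and handling cannot be told apart in this design. The whole organ was measured, so fewer cells of a type and less RNA per cell cannot be told apart either.

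Cells answer unfolded proteins in 2 compartments. In the cytosol, heat shock factors induce the Hsp90, Hsp70 and Hsp40 chaperones and their cofactors, while in the endoplasmic reticulum (ER) the unfolded protein response induces BiP and its partners. The lung also keeps its own circadian clock, in which Bmal1 (Arntl) with Clock or Npas2 drives the Period, Cryptochrome and Rev-erb repressors, and it is rich in the glucocorticoid receptor, which answers the adrenal hormone corticosterone.

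Levels are given as log2 intensities, so a difference of 1 is a doubling, and each gene is read from its brightest probe set. Array medians lay between 6.45 and 6.78. All 12 measured markers of alveolar type 2 cells read 10.03 or more in every one of the 18 mice, all 9 club cell markers 8.20 or more, and none of either list passed the threshold. By label, the conditions stand in unbroken runs along the array numbers 1 to 81, apart from array 81. Each of the 18 arrays was set against the mean of every group, over 200 probe sets chosen without that array. Of the 18, 14 were closest to the group on their label and 4 were not. Arrays 46 and 70, labelled SD 3 h, were closest to SD 6 h. Of the arrays labelled SD 6 h, 51 was closest to baseline and 74 to SS 3 h. Each of the 4 is the last array of its run, and the group it was closest to is the label of the next array.

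These 4 belong to 16 arrays that an earlier analysis of the same data left out, namely array 81 and 15 whose numbers fell on another condition when a repeating order, with places for 2 absent numbers, was assumed along the numbers. The labels themselves do not give that order, and whether they were exchanged was not tested. Arrays were used as labelled, with all 78 as the main result. Values without the 16, which leave 7 mice at each duration, are given beside them. Because leaving out the 16 was chosen after the data had been seen, calls and gaps between groups found only without them are a description, and their p-values are too small. Many genes named below were picked for their change in these same mice. The share of all genes whose groups do not overlap is not given, so a gap alone does not set a gene apart.

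With all arrays, 16 of 18820 genes rose from 3 h to 6 h of SD (0.085%) and 36 fell (0.191%), at an adjusted p below 0.01 from limma. Without the 16, 231 genes rose (1.23%) and 162 fell (0.861%). Of the 52 genes called with all arrays, 48 were also called without the 16, all in the same direction. Sleeping mice had 0 genes past the threshold in either direction between the same clock times with all arrays (0%), with 1990 at an unadjusted p under 0.05. Leaving out the 16, 35 genes rose (0.186%) and 46 fell (0.244%) in the sleeping mice. The change itself differed between sleep-deprived and sleeping mice for 1 gene in each direction with all arrays (0.00531% each). In the fit of 62 arrays it was more positive in SD for 43 genes (0.228%) and more negative for 28 (0.149%). The calls rested on pooling the spread over all groups, since the 18 arrays fitted alone with limma gave 0 calls, with 1746 genes higher and 1204 lower at an unadjusted p under 0.05 (the 14 that remain without arrays 46, 51, 70 and 74 gave calls in both directions). Leaving out 1 mouse at a time gave 5 (without SD 3 h array 67) to 85 genes higher and 14 (without SD 3 h array 45) to 92 lower, both highest without SD 3 h array 46.

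Among the pathway lists, cytosolic chaperones had the most genes that fell. Despite its name, the list also holds the mitochondrial chaperone genes Hspe1 and Hspd1. Hspe1 is counted among those that fell with all arrays, and both are among those that fell without the 16. Of 43 measured members, 10 fell and 0 rose with all arrays, where 0.191% of all genes fell. Without the 16, 18 fell and 0 rose, where 0.861% of all genes fell. The median change of the list was -0.20 with all arrays and -0.21 without the 16, beside 0.01 over all genes in both. In sleeping mice 0 of the 43 passed the threshold without the 16 arrays, and the median was -0.01.

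Hsph1 (Hsp110), which exchanges nucleotide on Hsp70, fell furthest of the list. Its levels at 3 h were 9.45 at the lowest, 10.70 at the median and 11.15 at the highest of 9 mice, and at 6 h 8.93, 9.58 and 9.77. The groups overlapped only through array 46, the lowest of the 3 h mice. The 7 remaining mice at 3 h lay between 10.50 and 11.15, and the 7 at 6 h between 9.17 and 9.77. The change was -1.17 ± 0.19 (SE, adjusted p = 0.000167 from limma), a level 2.25-fold lower at 6 h. Without the 16 it was -1.30 ± 0.14 (adjusted p = 5.83e-10 from limma), which is 2.46-fold lower. Both runs of consecutive array numbers showed the drop, by 1.51 in arrays 41 to 50 and 1.01 in arrays 67 to 73 without the 4 arrays.

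Stip1 (Hop), the adaptor that passes clients from Hsp70 to Hsp90, had 10.56, 11 and 11.48 at 3 h and 10.30, 10.48 and 10.62 at 6 h (lowest, median and highest of 9). Only array 46 among the 3 h mice lay inside the range of the 6 h mice. Its change was -0.58 ± 0.09 (adjusted p = 8.44e-05 from limma), the smallest adjusted p of all genes.

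Dnaja1, an Hsp40 that hands clients to Hsp70, read 9.20, 10.32 and 10.73 at 3 h and 9.43, 9.58 and 9.93 at 6 h. The lowest 3 h value was again array 46, and without the 4 arrays the groups did not overlap. The change was -0.62 ± 0.12 (adjusted p = 0.00172 from limma) and -0.76 ± 0.10 without the 16 arrays. Hspa4l, a relative of Hsph1, fell by 0.56, Dnajb1, another Hsp40, by 0.56, and St13 (Hip), an Hsp70 cofactor, by 0.35, all past the threshold with all arrays.

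Other members were picked out after their values were seen. Hsp90aa1, the stress-induced Hsp90, fell by 0.41 (adjusted p = 0.00421 from limma), and its 3 probe sets fell by 0.39 to 0.46. Hspe1, the mitochondrial co-chaperonin Hsp10, fell by 0.43 (adjusted p = 0.00875 from limma). Its partner Hspd1 (Hsp60) changed by -0.38 with all arrays (adjusted p = 0.0362 from limma) and fell by 0.52 without the 16 (adjusted p = 0.00109). Chordc1, a zinc-binding Hsp90 cofactor, changed by -0.55 (adjusted p = 0.0111 from limma) and fell by 0.67 without the 16 (adjusted p = 6.69e-05). Hspa8, the constitutive Hsp70, moved least of these, by -0.20 without the 16 arrays (adjusted p = 0.00618 from limma). With all arrays this probe set changed by -0.22 (adjusted p = 0.0197 from limma). The 2 other Hspa8 probe sets changed by -0.27 and -0.24 with all arrays, past the threshold (adjusted p = 0.00276 and 0.0075 from limma). Hsp90aa1, Hspa8, Hspd1 and Hspe1 each have 2 or 3 probe sets, and signal from near-identical copies of a gene cannot be separated on the array.

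Snord14e, a small nucleolar RNA that the annotation places inside Hspa8, changed by -0.78 with all arrays (adjusted p = 0.0204 from limma). It fell by 1.12 without the 16 (adjusted p = 1.2e-05 from limma). The 7 mice at 3 h then lay between 9.94 and 10.67 and the 7 at 6 h between 8.72 and 9.41.

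**Figure D1:**
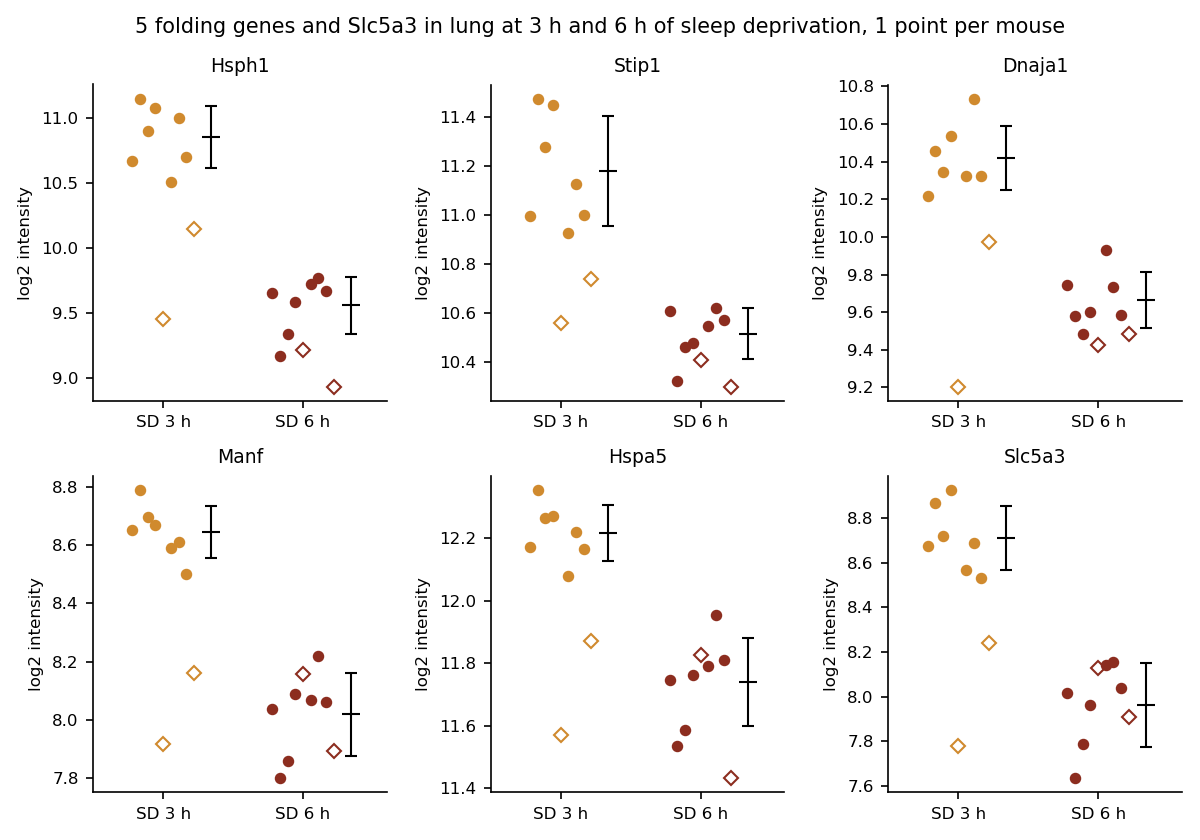
Log2 intensity of 5 folding genes and of the inositol transporter gene Slc5a3 in each mouse at 3 h and 6 h of sleep deprivation. Filled circles are the 14 arrays closest to their labelled group, open diamonds are arrays 46 and 70 (3 h) and 51 and 74 (6 h), and bars are the mean and SD of the 7 filled circles. The circles do not overlap in any panel, which is a description and no test, since the diamonds were set apart after the data had been seen. For Hsph1 they lie at 10.50 to 11.15 and at 9.17 to 9.77.

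The Hspe1 promoter is shown because it holds the heat shock element in its extended form, 3 or more units GAA in alternating orientation, each separated from the next by 2 bases. Capitals mark the overlapping matches in bases of GRCm38.p6 from RefSeq, chr1:55088055-55088084, plus strand, and the second of them begins 84 bases before the start of transcription.
Hspe1: tccgTTCTAGAACCTTCCGGAAggccccgc
In the 250 bases before the start, 3 of 38 measured chaperones with a promoter sequence held this form on either strand (7.89%), beside 0.514% of 27025 genes. These were Hspe1, Hspd1 and Dnajb6. Hspe1 and Hspd1 were counted as separate promoters, here and for the core, and whether their matches are the same bases was not tested. The core GAANNTTC alone was in 9 of the 38 (23.7%), beside 7.73% of all genes, and in 5 of the 14 with a promoter among those that fell without the 16 arrays (Dnaja1, Dnaja4, Fkbp4, Hspd1 and Hspe1). Among the 24 with a promoter that did not pass, 4 held it (16.7%). These matches describe letters only.

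Part of the ER folding list fell too. Of 43 measured, 4 fell and 0 rose with all arrays, where 0.191% of all genes fell. Without the 16, 10 fell and 0 rose, where 0.861% of all genes fell. The median change was -0.07 with all arrays and -0.09 without the 16, and in sleeping mice it was 0.03 without the 16, where 1 member rose.

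Manf, a secreted ER stress protein that protects cells, had 7.92, 8.61 and 8.79 at 3 h and 7.80, 8.06 and 8.22 at 6 h (lowest, median and highest of 9). Arrays 46 and 70 were the only 3 h mice inside the 6 h range. It fell by 0.49 ± 0.08 with all arrays (adjusted p = 0.000389 from limma) and by 0.62 ± 0.06 without the 16 (adjusted p = 1.13e-10).

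Hspa5 (BiP), the central ER Hsp70 and sensor of the unfolded protein response, read 11.57, 12.17 and 12.35 at 3 h and 11.43, 11.76 and 11.95 at 6 h. The same 2 arrays alone overlapped. Hspa5 fell by 0.39 ± 0.08 (adjusted p = 0.00187 from limma), and without the 16 arrays by 0.48 ± 0.06, a level 1.39-fold lower. Dnajb9, an ER Hsp40, fell by 0.35 (adjusted p = 0.00719 from limma), and Serpinh1, the collagen chaperone Hsp47, by 0.44 (adjusted p = 0.00802). Xbp1, a transcription factor of the same response that was picked out after its value was seen, changed by -0.18 with all arrays (adjusted p = 0.0253 from limma) and fell by 0.22 without the 16 (adjusted p = 0.00248). The remaining genes that fell without the 16 were Txndc11, Syvn1, Sdf2l1, Hyou1 and Creld2.

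P4ha1, a catalytic subunit of the prolyl hydroxylase that stabilises collagen, fell by 0.44 ± 0.08 (adjusted p = 0.00172 from limma), the only call among 23 collagen, elastic fibre and crosslinking genes with all arrays. Of 20 integrated stress response genes, 1 fell without the 16, the mitochondrial folate enzyme Mthfd2 (-0.49, adjusted p = 0.00447 from limma), and 1 rose, Ddit4.

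The Hspa5 promoter is shown for its ER stress element, CCAAT followed after 9 bases by CCACG. It lies at chr2:34771984-34772083 of GRCm38.p6, plus strand, and the match begins 65 bases before the start.
Hspa5: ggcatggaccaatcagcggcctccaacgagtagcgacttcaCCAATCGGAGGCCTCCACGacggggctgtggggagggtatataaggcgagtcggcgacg
This element, whose search was added after the data were seen, was in 10 of 36 measured ER folding genes with a promoter (27.8%), beside 0.13% of all genes and 0 of the 38 chaperones. Of the genes that fell without the 16, Hspa5, Creld2 and Syvn1 held it.

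For Hsph1 and Hspa5 the mean at 3 h was the highest of the 4 durations of SD. Leaving out the 16 arrays, Hsph1 had a mean of 9.43 ± 0.42 at baseline (standard deviation, n = 7), 10.86 ± 0.24 at SD 3 h (n = 7), 9.56 ± 0.22 at SD 6 h (n = 7) and 9.15 ± 0.26 at SD 9 h (n = 8). The sleeping mice stood at 8.68 ± 0.15 at 3 h (n = 7) and 8.58 ± 0.27 at 6 h (n = 6). The 6 h SD mean thus lay closer to baseline than to SD 3 h. Hspa5 had means of 11.74 ± 0.14 at baseline, 12.22 ± 0.09 at SD 3 h, 11.74 ± 0.14 at SD 6 h and 11.49 ± 0.07 at SS 6 h, with the same error and mice.

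**Figure D2:**
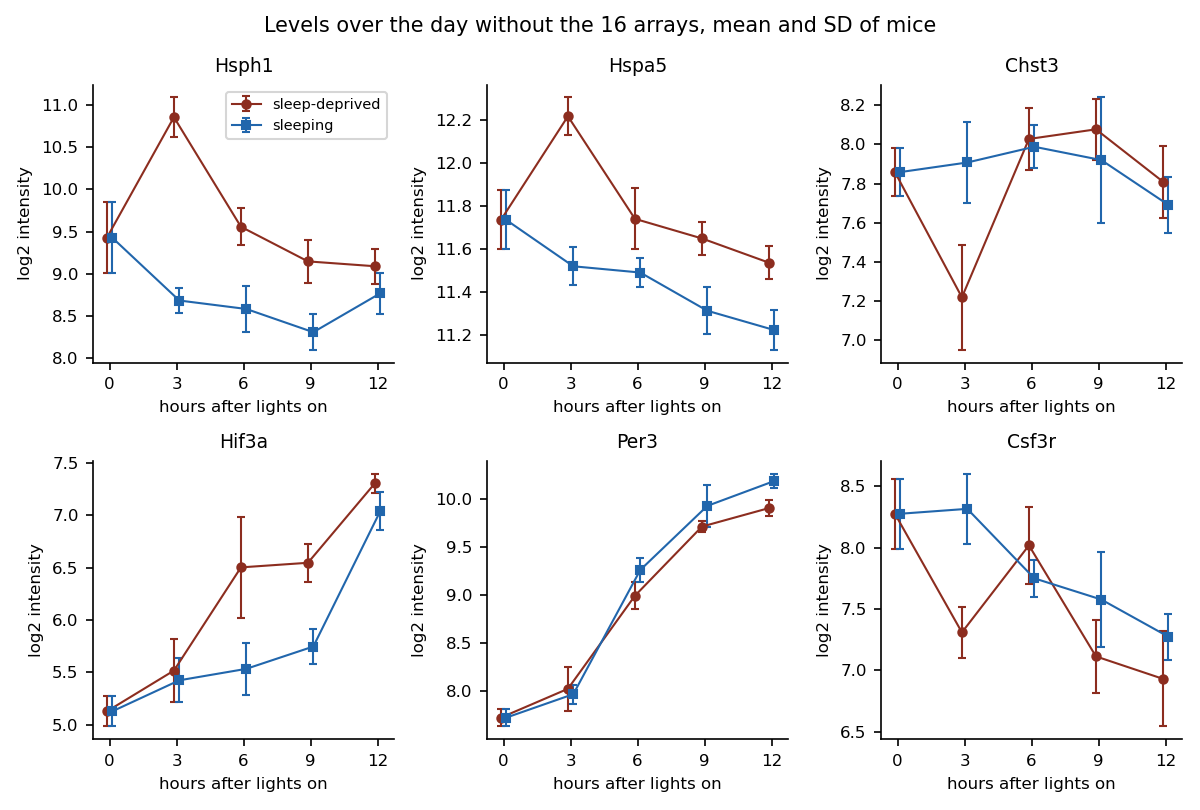
Mean log2 intensity with its standard deviation against hours after lights on, without the 16 arrays, for sleep-deprived (circles) and sleeping mice (squares), both drawn from the same baseline mice at 0 h. Hsph1 and Hspa5 peak at 3 h of sleep deprivation, Chst3 and Csf3r are lower there (7.22 and 7.31) than at 6 h (8.03 and 8.02), Hif3a is higher at 6 h (6.50) than at 3 h (5.52), and Per3 climbs in both states.

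The fall of the folding genes was set against the change in sleeping mice between the same clock times. With all arrays, Stip1 was the 1 gene whose change was more negative in SD (difference -0.69, adjusted p = 0.00807 from limma). Hsph1 had a difference of -1.39 (adjusted p = 0.0113 from limma) and Dnaja1 of -0.86 (adjusted p = 0.0105), both short of the threshold. Without the 16 the difference was -1.20 for Hsph1 (adjusted p = 0.000367 from limma), -0.90 for Dnaja1 (adjusted p = 0.000266) and -0.45 for Hspa5 (adjusted p = 0.0011). In that fit 7 of 43 cytosolic chaperones and 3 of 43 ER genes had a more negative change in SD, and none a more positive one. Over all genes, 0.149% had a more negative change there.

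Genes outside folding fell as well. Slc5a3, which carries myo-inositol into cells and is known for its response to osmotic stress, had 7.78, 8.68 and 8.92 at 3 h and 7.64, 8.02 and 8.15 at 6 h. Only array 46 of the 3 h mice was inside the 6 h range. Slc5a3 fell by 0.58 ± 0.11 (adjusted p = 0.00172 from limma), and its change differed from that of sleeping mice without the 16 arrays (-0.80, adjusted p = 0.0011). Sox11, a transcription factor best known from development, fell by 0.61 ± 0.12 (adjusted p = 0.00174 from limma). Nr4a3, an orphan nuclear receptor induced rapidly by many stimuli, was the only 1 of 27 immediate early genes that fell without the 16 arrays, by 0.77 (adjusted p = 0.00704 from limma), and with all arrays it changed by -0.69 (adjusted p = 0.0329).

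The genes that rose with all arrays were fewer and moved less. Chst3, a sulfotransferase of chondroitin sulfate chains, had the largest rise. The gene read 6.73, 7.28 and 8.04 at 3 h and 7.79, 7.99 and 8.21 at 6 h, and the groups overlapped only through arrays 46 and 70. It rose by 0.62 ± 0.11 (adjusted p = 0.00131 from limma) and by 0.81 ± 0.10 without the 16. Its mean at SD 6 h without the 16, 8.03 ± 0.16, was close to 7.86 ± 0.12 at baseline, and the SD 3 h mean was the low one at 7.22 ± 0.27.

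Slc25a10, which exchanges dicarboxylates across the inner mitochondrial membrane, rose by 0.33 ± 0.06 (adjusted p = 0.00118 from limma), from 9.76, 9.89 and 10.27 to 10.08, 10.22 and 10.41. Smtnl2, a smoothelin-like protein, rose by 0.39 (adjusted p = 0.00541 from limma), and Rcsd1, a regulator of actin capping, by 0.36 (adjusted p = 0.00817). Without the 16 arrays the 3 h and 6 h mice did not overlap for Slc25a10, Smtnl2, Rcsd1 or the fatty acid hydroxylase Cyp4f13 (0.27 with all arrays, adjusted p = 0.00172 from limma). These genes were picked for their change in the same mice. Alox5, the 5-lipoxygenase of leukotriene synthesis in white blood cells, rose by 0.27 (adjusted p = 0.00563 from limma), and Klhl4, a kelch family member, by 0.44 (adjusted p = 0.00273). Pdk1, the kinase that restrains pyruvate entry into the mitochondrion, rose by 0.39 with all arrays (adjusted p = 0.00397 from limma), but its change without the 16 was 0.28 (adjusted p = 0.0334). Arrays 51 and 74 had the 2 highest Pdk1 values of the 6 h mice, 8.38 and 8.44.

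With all arrays weighted equally, 0 of 20 measured clock genes passed the threshold (2 at an adjusted p under 0.05). With limma's array weights 2 passed, and without the 16 arrays 16 did. Over all genes, 1.23% rose and 0.861% fell without the 16.

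Npas2, a partner of Bmal1, had the widest spread. It read 7.93, 9.35 and 9.92 at 3 h and 7.56, 7.89 and 9.83 at 6 h. The low 3 h values were arrays 70 (7.93) and 46 (8.36), the high 6 h values arrays 51 (9.83) and 74 (9.23). The 7 other 3 h mice lay at 9.20 to 9.92 and the 7 other 6 h mice at 7.56 to 8.02, with no overlap. The change was -1.01 ± 0.31 with all arrays (adjusted p = 0.0736 from limma) and -1.70 ± 0.09 without the 16 (adjusted p = 1.34e-20), a level 3.24-fold lower. Arntl itself changed by -0.78 with all arrays (adjusted p = 0.166 from limma) and fell by 1.30 without the 16 (adjusted p = 6.46e-11), while Clock did not pass (-0.16, adjusted p = 0.0822).

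The repressors mostly went the other way. Per3 read 7.64, 8.18 and 9.01 at 3 h and 7.66, 8.91 and 9.23 at 6 h. Setting arrays 46, 51, 70 and 74 aside, the ranges were 7.64 to 8.26 and 8.80 to 9.23. Per3 rose by 0.97 ± 0.07 without the 16 arrays (adjusted p = 6.83e-15 from limma), a level 1.96-fold higher, where all arrays gave 0.55 (adjusted p = 0.181).

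Per1 rose by 0.96, Per2 by 0.78, Cry2 by 0.38, Bhlhe40 by 0.38 and Bhlhe41 by 0.995 without the 16 arrays, with adjusted p from 0.00393 to 2.62e-11 from limma. Bhlhe40 and Bhlhe41 (Dec1 and Dec2) repress the same promoters as the Period and Cryptochrome proteins. Nr1d2 (Rev-erb beta), which represses Arntl, rose by 0.78 without the 16 (adjusted p = 3.6e-09 from limma). With all arrays Nr1d2 changed by 0.41 (adjusted p = 0.359 from limma). Cry1 alone among these repressors fell without the 16, by 0.47 (adjusted p = 0.000624 from limma).

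With all arrays 0 of 7 measured output factors passed, with a median change of 0.41 beside 0.69 without the 16. The values that follow are those without the 16 arrays. Hlf rose by 0.94 (adjusted p = 1.3e-17 from limma) and Tef by 0.82 (adjusted p = 3.72e-09). Both are transcription factors that bind the D-box, and Nfil3, which opposes them there, fell by 0.93 (adjusted p = 3.05e-09 from limma). Wee1, the mitotic kinase, rose by 0.69, and Usp2, a deubiquitinase, by 0.73. Lonrf3, a ring finger protein, fell by 0.71. Coq10b, of the coenzyme Q pathway, changed by -0.07 (adjusted p = 0.772 from limma).

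**Figure D3:**
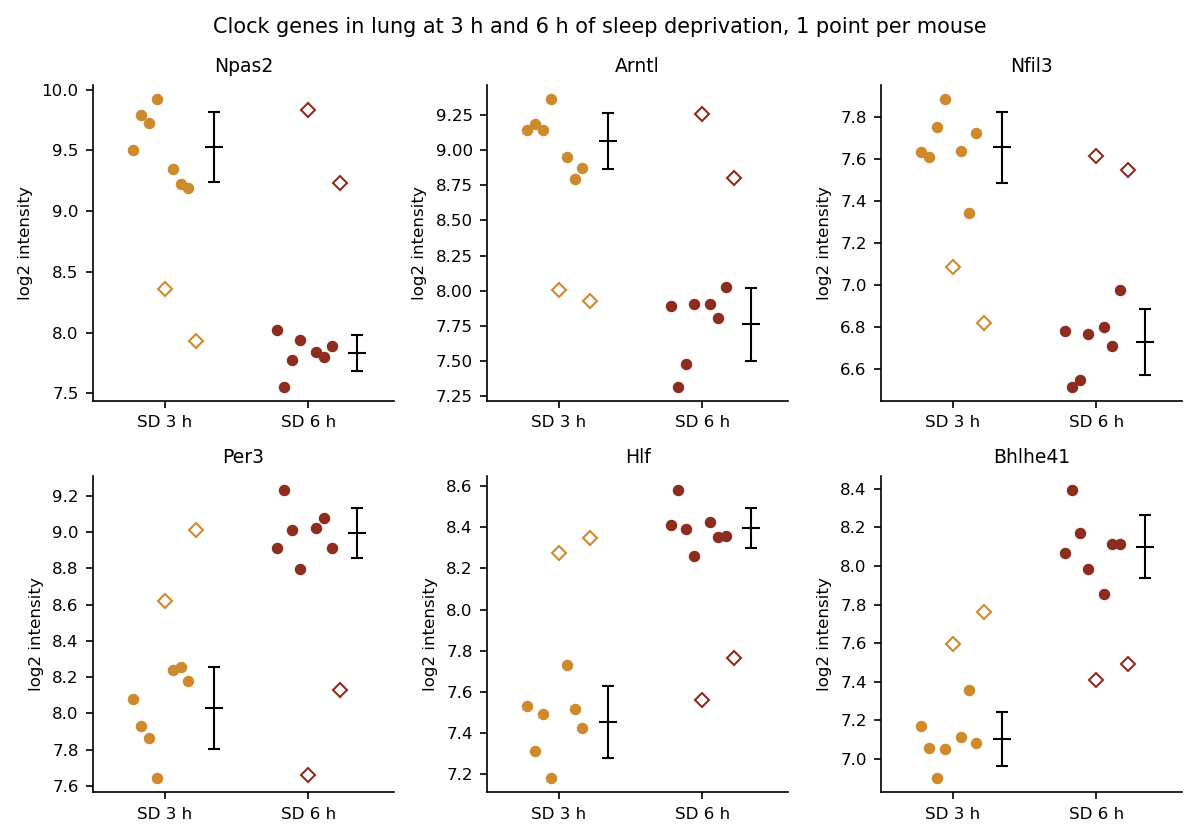
Log2 intensity of 6 clock genes in each mouse at 3 h and 6 h of sleep deprivation, with symbols as filled circles for the 14 arrays closest to their labelled group, open diamonds for arrays 46, 70, 51 and 74, and bars for the mean and SD of the 7 circles. The circles do not overlap in any panel, which is likewise a description and no test, while the diamonds labelled 3 h lie low and those labelled 6 h lie high for Npas2 (7.93 and 8.36 against 9.83 and 9.23).

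Sleeping mice were read without the 16 as well. Npas2 fell by 2.14 there, Arntl by 1.63 and Nfil3 by 0.78, and Per3 rose by 1.29, Per2 by 1.26, Hlf by 1.03 and Bhlhe41 by 1.05 (without the 16 arrays, adjusted p at most 1.58e-06 from limma). The test of the difference gave adjusted p of 0.0521 for Npas2 (difference 0.44 ± 0.13), 0.071 for Per3 (-0.32 ± 0.10) and 0.0711 for Per2 (-0.48 ± 0.16) from limma. Cry1 changed by -0.02 in sleeping mice (adjusted p = 0.948 from limma), and Coq10b rose by 0.34 (adjusted p = 0.00619), beside -0.47 and -0.07 in SD. For Hlf the difference was -0.08 ± 0.09 and for Bhlhe41 -0.05 ± 0.14.

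Ciart (Chrono), a repressor of the same loop, was the 1 clock gene whose change differed between the states without the 16 arrays. It rose by 0.60 in sleeping mice (adjusted p = 0.00048 from limma), and in SD mice it changed by -0.18 (adjusted p = 0.446), with a difference of -0.78 ± 0.15 (adjusted p = 0.00199). In SD mice Ciart was already at 8.82 ± 0.09 at 3 h, beside 7.85 ± 0.22 in sleeping mice. With all arrays the difference was -0.64 (adjusted p = 0.161 from limma). A second, dimmer probe set with the name Ciart changed by -0.26 in SD without the 16, and which of the 2 measures the gene is not settled by the annotation used here.

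The promoters of Bhlhe41, Tef and Per1 are shown because they hold the E-box CACGTG, the palindrome that Bmal1 and its partners bind, in capitals. In GRCm38.p6 they are chr6:145865521-145865620 on the minus strand, chr15:81802499-81802598 on the plus strand and chr11:69098736-69098835 on the plus strand.
Bhlhe41: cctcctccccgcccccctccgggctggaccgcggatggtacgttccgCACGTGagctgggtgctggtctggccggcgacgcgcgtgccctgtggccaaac
Tef: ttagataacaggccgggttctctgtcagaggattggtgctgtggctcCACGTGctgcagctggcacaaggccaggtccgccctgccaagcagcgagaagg
Per1: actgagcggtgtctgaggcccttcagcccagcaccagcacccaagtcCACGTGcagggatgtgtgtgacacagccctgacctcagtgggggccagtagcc
The element was in 4 of 6 clock repressors with a promoter (Bhlhe41, Ciart, Cry1 and Per1) and in 3 of 6 output factors (Coq10b, Lonrf3 and Tef), beside 6.86% of all genes. Holders of the element moved in both directions.

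Temperature-sensitive genes gave no call. Cirbp, an RNA-binding protein induced by cooling, read 8.73, 8.90 and 9.45 at 3 h and 9.18, 9.56 and 10.36 at 6 h, and changed by 0.61 (adjusted p = 0.0302 from limma) or 0.53 without the 16 (adjusted p = 0.0122). Its relative Rbm3 changed by 0.16 (adjusted p = 0.539 from limma) and 0.02 without the 16.

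Of 21 measured genes known to be induced by glucocorticoids, 0 passed the threshold with all arrays, with a median change of 0.14. Without the 16 arrays 9 rose and 0 fell, with a median of 0.41. In that fit 1.23% of all genes rose, and the median over all genes was 0.01. Sleeping mice had a median of 0.18 with all arrays and 0.04 without the 16, where 2 of the 21 rose.

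Hif3a, a hypoxia-inducible factor subunit that glucocorticoids induce, read 5.20, 5.54 and 6.46 at 3 h and 5.30, 6.33 and 7.16 at 6 h. Array 46 was the highest 3 h mouse, and arrays 74 and 51 were the 2 lowest 6 h mice (5.30 and 5.35). Hif3a changed by 0.55 with all arrays (adjusted p = 0.292 from limma) and rose by 0.98 ± 0.13 without the 16 (adjusted p = 4.61e-07). Its change differed from that of sleeping mice (0.11) by 0.87 (adjusted p = 0.00876 from limma).

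Ddit4 (Redd1), a brake on mTOR signalling, rose by 0.83 ± 0.13 without the 16 arrays (adjusted p = 6.33e-06 from limma), with the 3 h mice between 8.12 and 8.96 and the 6 h mice between 8.59 and 9.88, which overlap. Sleeping mice had 0.04, and the difference was 0.79 (adjusted p = 0.0126 from limma). In the same fit Arrdc2, an arrestin-domain protein, rose by 0.55, with no overlap between the 7 and 7 mice (6.93 to 7.25 and 7.30 to 7.96). Nfkbia, the inhibitor of NF-kB, rose there by 0.36 (adjusted p = 0.000191 from limma). Its change differed from that of sleeping mice without the 16 (0.45, adjusted p = 0.00576 from limma).

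Without the 16 arrays Fkbp5, a co-chaperone that damps the glucocorticoid receptor, rose by 0.75 and Tsc22d3 (Gilz), an anti-inflammatory target, by 0.49. In the same fit Klf9, a zinc finger factor, rose by 0.44 and Fam107a, an actin-binding protein, by 0.80. These 4 were named after their values were seen, with adjusted p between 0.00222 and 9.29e-06 from limma in that fit. Per1 was the remaining member that rose there. With all arrays none of them passed, and Klf9 changed by 0.16 (adjusted p = 0.564 from limma). For Fkbp5 the difference from sleeping mice was 0.48 (adjusted p = 0.237 from limma) and for Fam107a 0.76 (adjusted p = 0.0252), both short of the threshold. Fkbp5 stood at 7.38 ± 0.17 at baseline, 8.54 ± 0.31 at SD 3 h and 9.29 ± 0.49 at SD 6 h, and at 10.25 ± 0.10 at SD 12 h (n = 6).

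Fam107a is printed because its promoter holds the palindromic glucocorticoid response element, in capitals, at chr14:8309862-8309921 of GRCm38.p6 on the minus strand, 118 bases before the start.
Fam107a: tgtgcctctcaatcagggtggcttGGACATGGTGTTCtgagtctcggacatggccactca
The element was in 4 of 18 measured members with a promoter (Fam107a, Map3k6, Mt1 and Sgk1), beside 0.44% of all genes, and Fam107a was the only 1 of these that rose.

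Pik3ip1, an inhibitor of PI3 kinase and a FoxO target, rose by 0.55 ± 0.07 without the 16 arrays (adjusted p = 1.2e-07 from limma), and with all arrays it changed by 0.41 (adjusted p = 0.0104). Foxo1 rose by 0.22 without the 16 (adjusted p = 0.00504 from limma). Foxo3 was the third of 14 FoxO and insulin-response genes that rose in that fit, where 1.23% of all genes rose. With all arrays 0 of the 14 passed. Also without the 16, Pfkfb3, which makes the activator of glycolytic phosphofructokinase, rose by 0.55 (adjusted p = 1.28e-06 from limma) and by 0.41 in sleeping mice (adjusted p = 0.00252). Adm, the vasodilator peptide adrenomedullin, fell there by 0.80 (adjusted p = 0.000113 from limma) and by 1.01 in sleeping mice (adjusted p = 8.41e-06). With all arrays Pdk1 was the only call among 24 hypoxia and glycolysis genes.

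The largest rise without the 16 arrays was that of Mettl21e, a protein lysine methyltransferase gene known from muscle (1.19 ± 0.16, adjusted p = 3.27e-07 from limma). It lay between 5.09 and 5.77 at 3 h and between 5.81 and 7.25 at 6 h, while the change in sleeping mice was 0.47 and the difference 0.72 (adjusted p = 0.0612). The mean level of 11 skeletal muscle markers, relative to all arrays, reached 2.15 in the highest 3 h mouse and 2.92 in the highest 6 h mouse, and its part in this rise was not tested. Also without the 16 arrays, Tent5b, a poly(A) polymerase family member, rose by 0.82 (adjusted p = 1.37e-07 from limma). Sleeping mice had 0.02, a difference of 0.80 (adjusted p = 0.00194 from limma). In that fit Spon2, an extracellular matrix protein, fell by 1.25 and by 1.38 in sleeping mice, with a difference of 0.13 ± 0.17. Cxcl5, a chemokine that draws neutrophils, fell there by 0.82 and by 0.66 in sleeping mice.

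**Figure D4:**
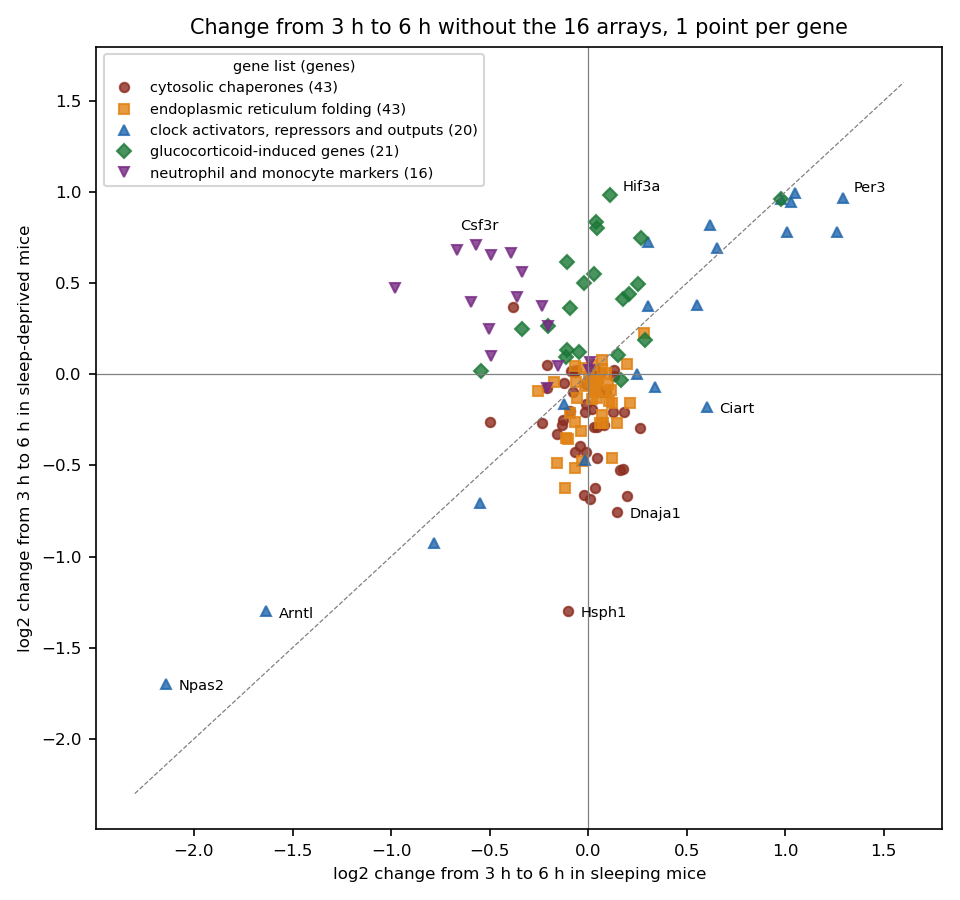
Log2 change from 3 h to 6 h in sleep-deprived mice (vertical) against that in sleeping mice (horizontal), without the 16 arrays, 1 point per gene of 5 lists, with the dashed line at equal change. Clock genes spread along the dashed line, with Ciart below it, cytosolic chaperones such as Hsph1 (-1.30 and -0.10) hang below the centre, most glucocorticoid-induced genes lie above it, and most neutrophil and monocyte markers lie at the upper left.

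Neutrophil and monocyte markers had median changes of opposite sign in the 2 states. Over 16 measured markers the median change was 0.29 in SD with all arrays and 0.39 without the 16, and in sleeping mice it was -0.43 and -0.38. In SD, 0 passed the threshold with all arrays and 2 rose without the 16, where 1.23% of all genes rose. Relative to all arrays, the mean level of the list was between -0.58 and 0.31 at 3 h and between -0.20 and 0.54 at 6 h, so the groups overlapped.

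Without the 16 arrays, 7 of the 16 markers had a more positive change in SD than in sleeping mice, beside 0.228% of all genes. Csf3r, the receptor for the neutrophil growth factor G-CSF, rose by 0.71 in SD (adjusted p = 0.00206 from limma) against -0.57 in sleeping mice, a difference of 1.28 (adjusted p = 0.000888). Mmp8, neutrophil collagenase, rose by 0.66 in SD, with a difference of 1.06 (adjusted p = 0.000877 from limma). For S100a8, a calcium-binding alarmin of neutrophils, the SD change was 0.68 (adjusted p = 0.0115 from limma) and the difference 1.35 (adjusted p = 0.0013). Csf3r and Mmp8 were named after their values were seen.

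Lilra6, an immunoglobulin-like receptor of myeloid cells, was the 1 gene whose change was more positive in SD with all arrays (0.76, adjusted p = 0.00963 from limma). Neither this call nor that of Stip1 was made in 9 of the 18 fits that left out 1 mouse (arrays 41, 43, 44, 45, 48, 49, 51, 68 or 74). It read 6.45, 6.54 and 6.88 at 3 h and 6.74, 6.90 and 7.17 at 6 h of SD. In sleeping mice its mean went from 7.28 ± 0.18 to 6.85 ± 0.15 without the 16 arrays. Csf3r stood at 7.31 ± 0.21 at SD 3 h beside 8.28 ± 0.29 at baseline and 8.32 ± 0.29 at SS 3 h.

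All 13 measured liver transcripts had a positive change, with a median of 1.32 with all arrays and 1.45 without the 16, and 0 passed the threshold. Alb, serum albumin, read 6.46, 7.54 and 10.18 at 3 h and 8.22, 10.23 and 12.32 at 6 h, and changed by 2.42 (adjusted p = 0.122 from limma). Cyp2e1, a drug-metabolising enzyme of the liver, changed by 0.68 (adjusted p = 0.183 from limma). The mean level of the list was at most -0.01 in the 3 h mice (lowest -1.30) and as high as 2.70 in the 6 h mice (lowest -0.74), in array 50. In sleeping mice it went higher, to 3.88 at 3 h (array 60) and to 4.98 and 4.16 at 6 h (arrays 79 and 80). Arrays 60, 79 and 80 are not among the 16, so every difference from sleeping mice includes them in both fits.

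With that level as a covariate, a setting added after the data were seen, 8 cytosolic chaperones were lower instead of 10 and 2 ER genes instead of 4, with 27 genes higher and 22 lower in all. Skeletal muscle markers had a median of 0.90 with all arrays and 0.66 without the 16. For fat markers it was 0.40 and 0.19, and for B cell markers 0.39 and 0.27. Thyroid and oesophagus markers had 0.08 and 0.04, but their mean level reached 2.30 at 3 h (array 68) and 2.47 at 6 h (array 73). None of these markers passed. Their part in the results was not tested.

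**Figure D5:**
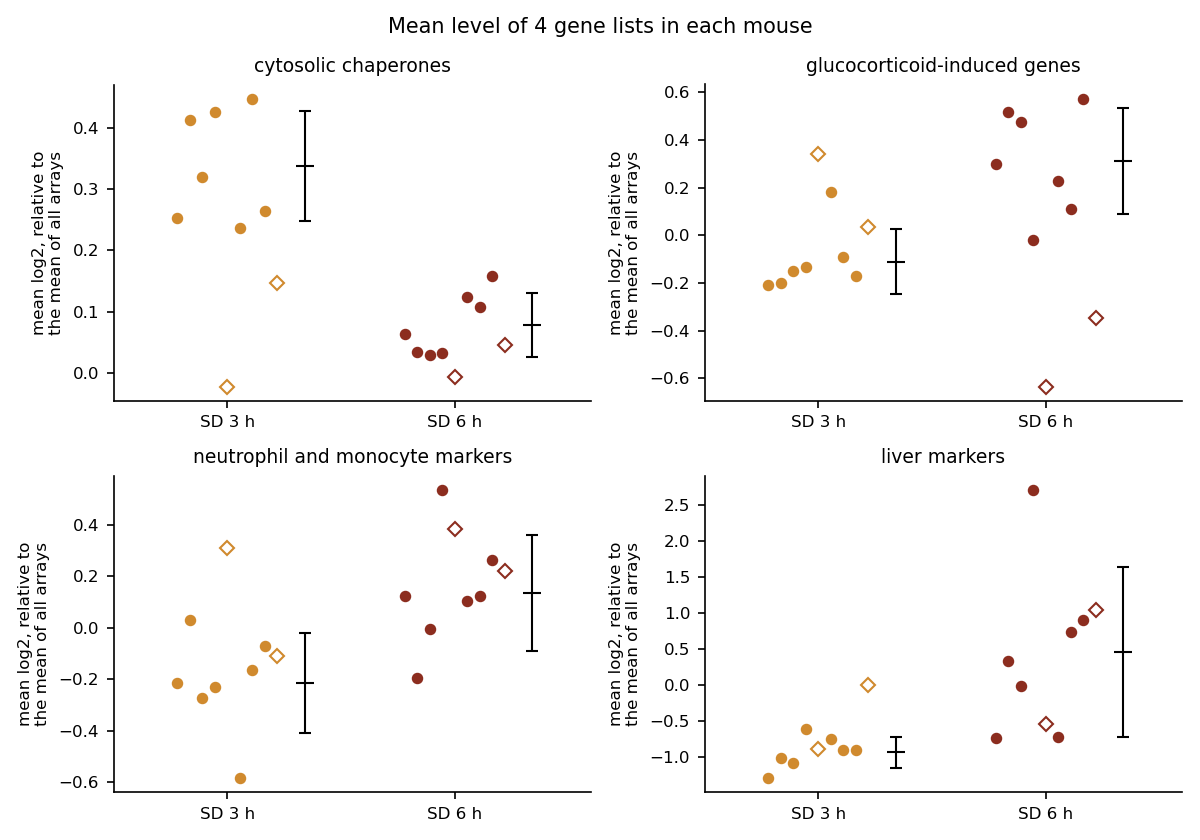
Mean log2 level of 4 gene lists in each mouse, relative to the mean over all arrays, with filled circles for the 14 arrays closest to their labelled group, open diamonds for arrays 46, 70, 51 and 74, and bars for the mean and SD of the 7 circles. For the cytosolic chaperones the 3 h circles lie between 0.24 and 0.45 and the 6 h circles between 0.03 and 0.16, while the liver list spreads up to 2.70 at 6 h, and a gap between circles alone is a description and no test.

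Dim probe sets made up part of the genes that fell. Olfactory, vomeronasal and trace amine receptors, a list drawn up after the data were seen, had 1170 measured members with a mean level of 3.84, near the bottom of the scale. Of these, 8 fell with all arrays, where 0.191% of all genes fell. Without the 16, 25 fell (2.14%), beside 0.861% of all genes. In either fit 0 rose, and the median change was -0.09 in both, beside 0.01 in sleeping mice without the 16. The 1966 genes with a mean of at most 4 had a median change of -0.05 and the 1797 genes between 6 and 7 one of 0.06. With genes of a mean above 6 alone tested, 24 genes were higher and 34 lower.

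Several lists held no calls in either fit. In each, 0 of 30 proteasome subunits, 0 of 29 respiratory chain genes, 0 of 24 ribosome biogenesis genes, 0 of 22 interferon-induced genes, 0 of 18 cholesterol synthesis genes and 0 of 27 cell cycle genes passed. Their median changes lay between -0.07 and 0.12 in the 2 fits. Over all genes, 0.085% rose and 0.191% fell with all arrays, and 1.23% and 0.861% without the 16. At such shares lists of this size would hold few calls or none, so these zeros do not set the lists apart.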

How the data were processed

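RNA from whole lung, 1 mouse per Affymetrix Mouse Gene 1.0 ST array, was summarised by the authors with robust multi-array averaging (RMA) over all lung arrays. The deposited values are log2 intensities whose decimal point had been lost. It was put back, which gave 2.27 to 13.85, and no further scaling was done. Of 35556 probe sets, 21218 carry 1 gene symbol and 1881 several, which were left unnamed, and 18820 genes were each read from their brightest probe set. Means of 9 groups were fitted with limma 3.58.1 in R 4.3.3, and Benjamini-Hochberg adjustment ran over all probe sets, with a threshold of 0.01. Lists were described by counts and medians. Named genes were the 12 largest rises and 12 largest falls among those called with all arrays and again without the 16, the 4 members of a pathway list or 2 of a marker list with the smallest p, all clock and cold-inducible genes, and the 8 genes with the smallest p for the difference from sleeping mice. Some genes that these rules picked are not named in the text. Of 73 genes followed, 12 were picked after their values were seen. Left out in turn were each mouse, dim genes, runs of array numbers and 16 arrays taken from an earlier analysis, which chose them after seeing the data. Members and lists were chosen with earlier results of these data known. Motifs were searched on both strands in the 250 bases before RefSeq starts of GRCm38.p6. The fit was tested on simulated data with independent normal noise. There it recovered 24.5% of changes of 0.25, 74.5% of changes of 0.5 and 95% of changes of 1. The simulation held no arrays closest to another group and no genes that vary together, so it does not cover these features of the data. Each array is 1 mouse, and precision is limited by the number of arrays.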

Additional observations from a re-analysis of the deposited data

Results flagged for a closer look

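In 12 of 146 tests of 1 gene in 1 group of 9 mice, 1 mouse stood further from the rest than Dixon's limit allows. Chance gives about 1 in 20 for genes chosen without regard to these arrays. That rate does not apply here, since 20 of the 73 genes were named by their change without the 16 arrays and 12 after their values were seen. The 12 values come from arrays 46, 51, 70 and 74. At 3 h, array 46 stood apart for Dnaja1 (9.20), Coq10b (7.85), Arrdc2 (7.56), Smtnl2 (9.79), Sox11 (7.90) and Csf3r (8.35), and array 70 for Alb (10.18). At 6 h, array 51 stood apart for St13 (9.81), Nr1d2 (8.32), Cry1 (7.91) and Cxcl5 (5.56), and array 74 for Mmp8 (5.93). With all arrays, the change differed from that of sleeping mice for Stip1 (-0.69) and Lilra6 (0.76), by the test of the difference in limma.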

How the results depend on the processing

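Counts are given as genes higher, genes lower, genes whose change differed from that of sleeping mice, cytosolic chaperones lower, ER folding genes lower, glucocorticoid-induced genes higher and clock genes that differed. With all arrays these were 16, 36, 2, 10, 4, 0 and 0. Without the 16 arrays they were 231, 162, 71, 18, 10, 9 and 16, and of 73 genes followed, 41 passed the threshold newly and Pdk1 and Klhl4 no longer did. Leaving out the 16 was first chosen after the data had been seen. With the 4 runs of array numbers as a block the counts with all arrays were 24, 50, 2, 10, 6, 0 and 0, and with trended and robust variances 15, 36, 3, 10, 4, 0 and 0. Fitting only the arrays of the groups compared gave 0, 0, 1, 0, 0, 0 and 0. Within arrays 41 to 51 and within arrays 67 to 74 alone all counts were 0, no difference from sleeping mice was fitted, and Per2 (-0.006) and Bhlhe40 (-0.076) turned negative within arrays 67 to 74. At an unadjusted p under 0.05 from limma, arrays 41 to 51 gave 852 genes higher and 1087 lower, and arrays 67 to 74 gave 1600 and 784. Weighting arrays by quality gave 144, 123, 42, 18, 10, 1 and 2. Testing only genes with a mean above 6 raised the differences from sleeping mice to 6, and counting any probe set of a gene raised them to 4. An adjusted p under 0.05 gave 153, 169, 130, 17, 10, 0 and 2.

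Other settings were chosen after seeing the data. Without arrays 46, 51, 70 and 74 alone, the counts were 107, 103, 46, 15, 9, 4 and 8. The 14 arrays alone gave 93 genes higher, 74 lower, 9 chaperones, 7 ER genes, 2 glucocorticoid-induced genes and 13 clock genes. Leaving out the 16 arrays and blocking on the 4 runs gave 273, 204, 126, 22, 12, 9 and 16. Liver transcripts as a covariate gave 27, 22, 18, 8, 2, 0 and 0.

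Leaving out 1 mouse at a time gave 5 (without SD 3 h array 67) to 85 genes higher, 14 (without SD 3 h array 45) to 92 lower and 0 (in 9 of 18 fits, those without array 41, 43, 44, 45, 48, 49, 51, 68 or 74) to 44 differences from sleeping mice. It gave 6 (without array 43, 44, 45 or 74) to 16 chaperones, 2 (in 9 of 18 fits) to 8 ER genes, and 0 glucocorticoid-induced and 0 clock genes. Of 23 followed genes called with all arrays, 13 kept the call without any 1 mouse (Hsph1, Stip1, Dnaja1, Hspa4l, St13, Manf, Hspa5, P4ha1, Slc5a3, Sox11, Chst3, Slc25a10 and Cyp4f13). Alox5, Dnajb1, Dnajb9, Hsp90aa1, Hspe1, Klhl4, Pdk1, Rcsd1, Serpinh1 and Smtnl2 lost it without 2 to 14 of the mice, at adjusted p up to 0.0379 from limma. Every count that moved was highest without SD 3 h array 46. The cause of these shifts was not tested. No paired analysis was possible because each mouse was killed once and gave 1 lung array. The spread among 9 mice at each duration limits what could be called, and dim genes near the bottom of the scale are the least certain.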
